A study of Mus musculus with 12 samples.

Results

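The genes described here encode the nuclear subunits of the 4 respiratory chain complexes and of the mitochondrial ATP synthase, with the assembly factors whose symbols share the same roots. They were taken as every gene whose symbol begins with Nduf followed by a, b, c, s or v, Sdh followed by a, b, c or d, Uqcr, Cox4i, Cox5, Cox6, Cox7, Cox8 or Atp5, without pseudogenes, and measured by a probe set assigned to that symbol alone. This gave 91 of the 22180 genes with such a probe set, namely 34 complex I subunits, 8 complex I assembly factors, 4 complex II subunits, 4 complex II assembly factors, 7 complex III subunits, 17 complex IV subunits and 17 ATP synthase subunits. Complex I subunits were grouped by symbol, so the 34 include Ndufa4, since placed in complex IV, and its relative Ndufa4l2. Where a gene had more than 1 probe set, as 10 of the 91 did, the one with the highest mean over the 12 arrays was used. Another 8 genes, Cox6c, Ndufb2, Ndufb4, Ndufb4b, Ndufb4c, Ndufs6, Ndufs6b and Uqcr10, lay only on probe sets shared with other symbols and were not counted. Of the 91, 89 had a mean log2 level of at least 5, and the 2 below it were Cox7b2 and Cox8c.

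The study asked how loss of histone deacetylase 2 (HDAC2), an enzyme that removes acetyl groups from histones, changes the response of the kidney to ischemia and reperfusion injury (IRI). RNA of kidney tissue from female mice of 8 to 12 weeks was hybridised to 12 whole-transcript arrays, 3 in each of 4 groups. WT mice carried the tamoxifen-inducible CreERT2 transgene according to the sample labels, and HDAC2-/- mice carried it with floxed Hdac2 alleles. Mice of both genotypes received tamoxifen at 100 mg/kg on 5 days, followed by 7 days of recovery. The WT and HDAC2-/- groups had no ischemia. In the WT ischemia and HDAC2-/- ischemia groups the left renal pedicle was clamped for 28 min, the right kidney was removed and the left was collected after 4 h. The sources name no sham operation, so the clamp, the surgery and the anesthesia cannot be told apart. CreERT2 was driven by a ubiquitin C promoter, so that deletion was not limited to a kidney cell type. The labels name renal cortex and the methods whole kidney, and the 11 measured markers of proximal tubule had a mean log2 level between 11.52 and 11.88 on every array, although 1 of them, Slc7a13, was dim at 4.22 to 5.68.

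Complex I oxidises NADH and complex II oxidises succinate, and both pass electrons through ubiquinone to complex III. Cytochrome c carries them on to complex IV, where oxygen is reduced, and the protons pumped by complexes I, III and IV drive the ATP synthase. The proximal tubule is rich in mitochondria and relies on this pathway for the ATP that drives its transport, and it is the segment best known for its sensitivity to ischemia. A few core subunits of complexes I, III, IV and the ATP synthase are encoded by mitochondrial DNA. All others are encoded in the nucleus and have to be transcribed, translated and imported to join them.

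Array medians lay between 5.62 and 5.76 on the log2 scale, and arrays of the same group correlated with each other at 0.983 to 0.994 over all probe sets. The Hdac2 probe set did not separate the genotypes, with means of 7.92 in WT, 7.99 in HDAC2-/-, 8.01 in WT ischemia and 8.13 in HDAC2-/- ischemia. Where its probes lie relative to the deleted exons is not given in the sources used here, so the level neither checks nor contradicts the labels, and directions between genotypes below are those of arrays labelled HDAC2-/-. WT ischemia replicate 2 stood apart from the other arrays. It had the lowest mean of the 91 members (9.51, against 9.73 to 10.14 on the other 11), the lowest mean over 85 snoRNA, scaRNA and snRNA probe sets (8.02, against 8.30 to 9.23) and the highest mean of 15 genes of pyruvate dehydrogenase and the citric acid cycle (10.77, against 10.25 to 10.43). Where a call, or a value that a statement rests on, leaned on this array, the value without it or the level on each array is given too. In bulk tissue, fewer cells of a type and less RNA per cell cannot be told apart.

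In WT kidneys, nuclear respiratory transcripts were mostly lower after ischemia, and a minority of the differences passed the test. Of the 91 members, 15 fell and 1 rose at an adjusted p under 0.05 (limma, Benjamini-Hochberg adjustment over 34472 probe sets), against 7.17% of all probe sets that fell and 6.55% that rose. The 15 make up 16.5% of the members. Among bright probe sets, with a mean log2 level of at least 9, 16.0% of 3961 fell and 11.0% rose, and among the 58 members that bright 17.2% fell. The count of called members was therefore above that of the whole array and close to that of probe sets of similar brightness, a background chosen after the values were seen. By sign alone, 79 of the 91 members were lower, or 86.8%, against 52.8% of all probe sets lower and 46.7% higher. Of bright probe sets 63.6% were lower in sign and 36.2% higher. The median log2 difference of the members was -0.32, with a middle range of -0.47 to -0.21, against -0.02 for all probe sets and -0.15 for bright ones. The WT and WT ischemia values did not overlap for 37 members that were lower and 4 that were higher, against 15.3% and 13.0% of all probe sets. At an unadjusted p under 0.05 37 were lower and 4 higher, against 13.6% and 11.5%. Of the 3961 bright probe sets, 1199 were lower and 686 higher without overlap. At that unadjusted p 1157 of them were lower and 642 higher.

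**Figure D1:**
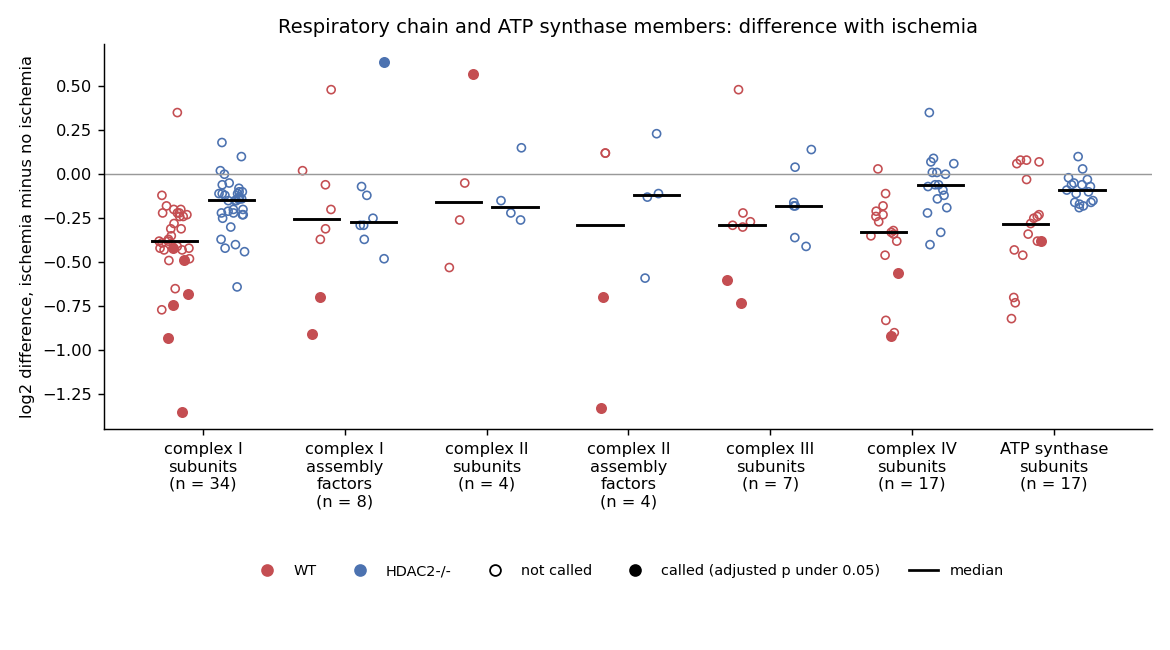
Log2 difference with ischemia (vertical axis) of each of the 91 members, by complex, in WT (red) and in HDAC2-/- (blue) kidneys. Filled points passed an adjusted p under 0.05, open points did not, and black bars are medians. The WT medians run from -0.38 for complex I subunits to -0.16 for complex II subunits, and the 1 filled blue point is Ndufaf4 at 0.64.

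Complex I subunits, as grouped by symbol, gave the lowest median of the WT comparison, -0.38. Of the 34, 33 were lower in sign and 6 were called lower, Ndufa4l2 among them. The member that fell most was Ndufa4l2, a relative of Ndufa4 that is known as a hypoxia-inducible gene and as a brake on complex I activity. Its log2 level was 7.57, 8.04 and 7.28 on the 3 WT arrays and 6.04, 6.09 and 6.70 on the 3 WT ischemia arrays. Every ischemic value lay below every WT value, and the level fell 2.56-fold (log2 difference -1.35, SE 0.21, limma adjusted p = 8.45e-04). Ndufb11, a subunit of the membrane arm, read 7.62, 7.69 and 7.78 in WT and 6.90, 6.18 and 7.23 after ischemia. The groups again did not overlap, with a 1.90-fold fall (SE of the log2 difference 0.21, limma adjusted p = 0.0105). Ndufv3, which belongs to the NADH-oxidising tip of the enzyme, moved from 9.08, 9.23 and 9.10 to 8.37, 8.48 and 8.51. This was a 1.61-fold fall with little spread in either group (SDs of 0.08 and 0.07, limma adjusted p = 0.00271). The other called subunits were all accessory ones, Ndufa2 with a log2 difference of -0.74, Ndufa11 with -0.49 and Ndufa8 with -0.42. Without WT ischemia replicate 2 Ndufa2 differed by -0.52 and Ndufa8 by -0.42, neither of them called.

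The nuclear-encoded core subunits of complex I, which carry out electron transfer, were 6 of the members, and none of them was called. Of these, Ndufv1, Ndufs3, Ndufv2, Ndufs7 and Ndufs8 had log2 differences of -0.12, -0.20, -0.24, -0.31 and -0.31. Ndufs1 read 8.48, 8.45 and 8.67 in WT and 8.91, 9.06 and 8.69 after ischemia, and it was the only complex I subunit that was higher in sign (log2 difference 0.35, limma adjusted p = 0.176). A second probe set that carries Ndufs1 together with another symbol gave -0.21, so its direction differed between probe sets. The core subunits were set apart after the values were seen, and without WT ischemia replicate 2 Ndufs8 and Ndufs7 differed by -0.54 and -0.39, so no contrast with accessory subunits is drawn.

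Among complex I assembly factors, which help to build the enzyme and are not part of it, Ndufaf8 and Ndufaf3 were called lower. Ndufaf8, which in human cells works with Ndufaf5 in an early step of assembly, read 9.29, 9.26 and 9.22 in WT and 8.26, 8.22 and 8.55 after ischemia. No value of the groups overlapped, with a 1.88-fold fall (log2 difference -0.91, SE 0.13, limma adjusted p = 6.97e-04). Ndufaf3 fell 1.62-fold (limma adjusted p = 0.00441). Ndufaf4, the known partner of Ndufaf3 in the same assembly step, differed the other way, by 0.48, and did not pass the test in WT (limma adjusted p = 0.0804). Of 8 assembly factors of complex I outside the symbol rule, Timmdc1 fell, with a log2 difference of -0.54, and the other 7 were not called.

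Complex II held the only member called higher in WT and also some of the largest falls. Sdha, the flavoprotein subunit that oxidises succinate, read 10.77, 10.72 and 10.86 in WT and 11.28, 11.68 and 11.09 after ischemia. The groups did not overlap and the level rose 1.48-fold (log2 difference 0.57, SE 0.15, limma adjusted p = 0.0254). The membrane anchors Sdhc and Sdhd had differences of -0.53 and -0.26, and the iron-sulfur subunit Sdhb -0.05, all short of the threshold, and Sdhc was at -0.29 without WT ischemia replicate 2. Sdhaf4, an assembly factor that binds the flavinated Sdha protein before the complex is joined, read 8.12, 8.52 and 8.91 in WT and 7.24, 6.94 and 7.38 after ischemia. All 3 ischemic values were below the WT values, a 2.51-fold fall (log2 difference -1.33, SE 0.25, limma adjusted p = 0.00355). Sdhaf1, which serves the iron-sulfur clusters of the Sdhb protein in human cells, fell 1.63-fold (limma adjusted p = 0.0254), and its second probe set fell too, by 0.59 (limma adjusted p = 0.0314). Without WT ischemia replicate 2 Sdha differed by 0.40 and Sdhaf1 by -0.49, neither of them called. Sdhaf2 and Sdhaf3 each differed by 0.12 and were not called.

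In complex III, Uqcr11 and Uqcrfs1 were called lower among 7 subunits. Uqcr11, a small accessory subunit, read 10.85, 10.67 and 10.76 in WT and 10.25, 9.63 and 10.22 after ischemia. The groups were apart, with a 1.65-fold fall (log2 difference -0.73, SE 0.20, limma adjusted p = 0.0238). Uqcrfs1, the Rieske iron-sulfur protein, fell 1.51-fold (limma adjusted p = 0.0461), although its lowest WT value, 9.61, lay just under its highest ischemic value, 9.64. Without WT ischemia replicate 2 Uqcrfs1 differed by -0.41 and was not called. Uqcrc2, a large core subunit without a redox center, was higher on all 3 ischemic arrays, with a difference of 0.48 that did not pass the test (limma adjusted p = 0.0645). Of 10 further genes for cytochrome c, cytochrome c1 and complex III assembly, 3 fell and 1 rose. Lyrm7, which handles the Rieske protein before its insertion, had the largest difference of the 4, -1.15 (limma adjusted p = 1.07e-04), and Bcs1l, which inserts that protein, had -0.77. The others were Uqcc2, with -0.61, which was not called without WT ischemia replicate 2 (-0.52), and Ttc19, with 0.53.

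Complex IV subunits were lower in sign in 16 of 17 cases with a median of -0.33, and Cox7a1 and Cox6b1 were called. Cox7a1, the form of subunit 7A known from heart and skeletal muscle, read 11.00, 11.11 and 11.30 in WT and 10.40, 9.58 and 10.67 after ischemia. The groups did not overlap and the level fell 1.89-fold (log2 difference -0.92, SE 0.24, limma adjusted p = 0.0180). Cox6b1, which sits near the docking site of cytochrome c, read 12.08, 12.01 and 12.13 in WT and 11.68, 11.16 and 11.71 after ischemia. It fell 1.47-fold (SE of the log2 difference 0.16, limma adjusted p = 0.0313). In both genes the lowest value came from WT ischemia replicate 2, and without that array the differences were -0.60 for Cox7a1 and -0.38 for Cox6b1, neither of them called. Of 16 genes for cytochrome c oxidase assembly, 5 fell and none rose in WT. They were Cox15 (-0.67), which makes heme A, Coa3 (-0.66), Pet100 (-0.65), Cox14 (-0.62) and Cox19 (-0.56). Without WT ischemia replicate 2, Cox14, Coa3 and Pet100 were not called.

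Among the 17 ATP synthase subunits, 13 were lower in sign, with a median of -0.28, and Atp5h was the 1 called. Atp5h, subunit d of the peripheral stalk, read 12.78, 12.77 and 12.70 in WT and 12.41, 12.23 and 12.46 after ischemia. The fall of 1.30-fold was larger than the spread of either group (SDs of 0.04 and 0.12, limma adjusted p = 0.0457). Atp5a1, Atp5b and Atp5c1, which form the head and its central shaft, differed by 0.08, 0.06 and 0.08 and were not called. Atp5l and Atp5mpl, small subunits of the membrane part, and Atp5e, a small subunit of the central stalk, differed by -0.82, -0.73 and -0.70 with overlapping groups and adjusted p-values of 0.128, 0.136 and 0.183 (limma). These values leaned on WT ischemia replicate 2, without which they were -0.48, -0.34 and -0.31, and those of Atp5a1, Atp5b and Atp5c1 were -0.13, -0.06 and -0.05. The 3 genes for the identical c-ring subunit, Atp5g1, Atp5g2 and Atp5g3, differed by -0.46, -0.28 and -0.38 and were not called. Atpaf2, an assembly factor of the catalytic head, fell by 0.60 on the log2 scale, and by 0.53 without WT ischemia replicate 2, which was not called.

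**Figure D2:**
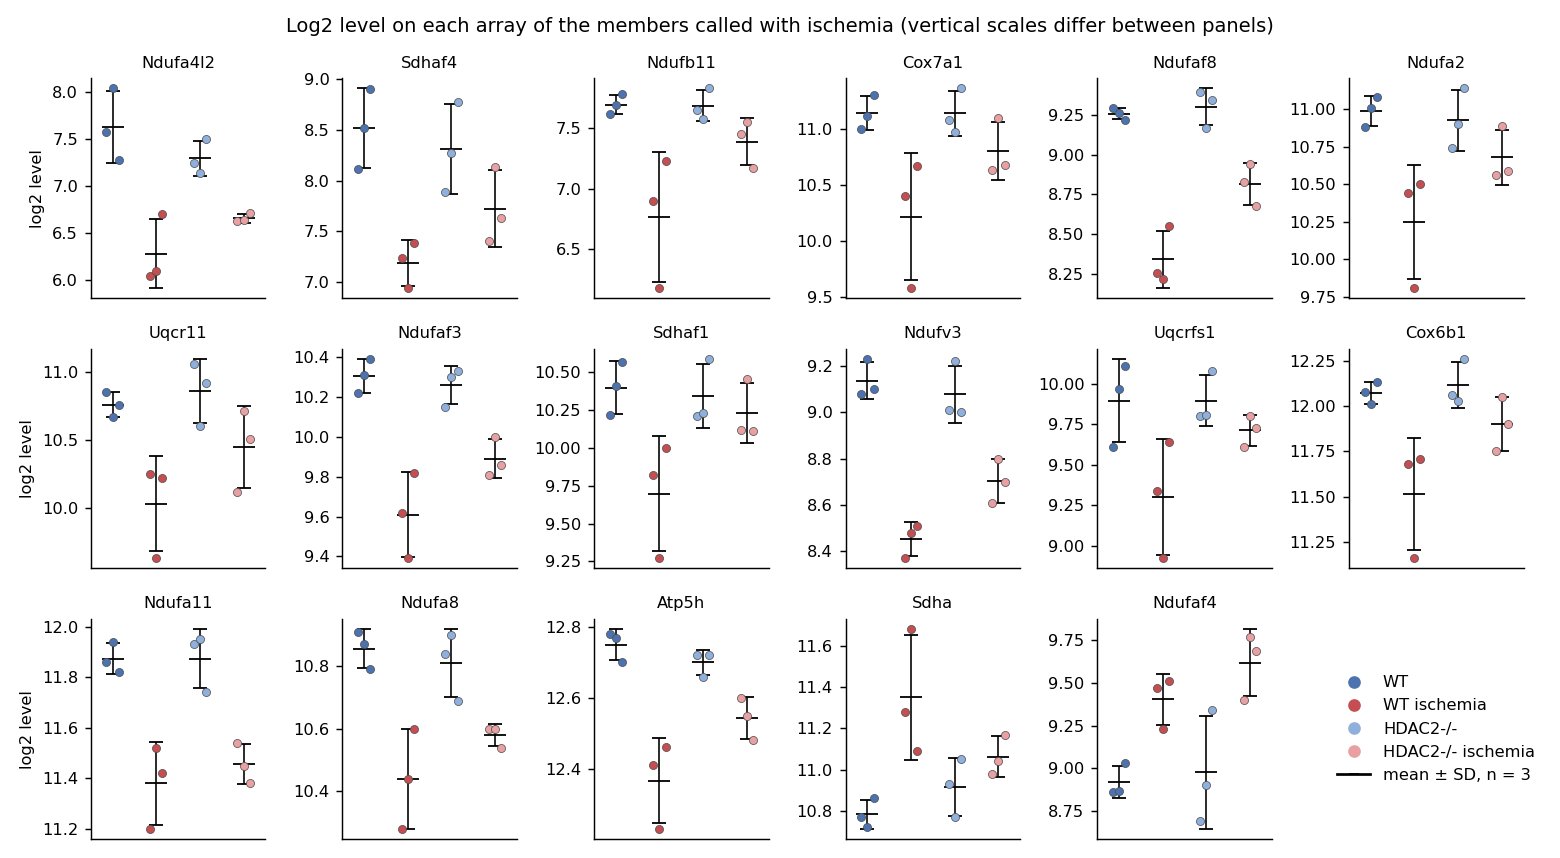
Log2 level (vertical axis, scale set per panel) of the 16 members called in WT and of Ndufaf4, called in HDAC2-/-, on each of the 12 arrays. Points are arrays by group, bars are the mean ± SD of 3 arrays. Among the members called in WT, only Uqcrfs1 has a WT ischemia value within the range of its WT values, and Sdha and Ndufaf4 are the panels in which the ischemic groups lie higher.

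The calls of the WT comparison leaned on single arrays. Without WT ischemia replicate 2 the members called were 8, all lower, against 4.80% of all probe sets that fell, and the median difference was -0.24 with 80 members lower in sign. Atp5h, Cox6b1, Cox7a1, Ndufa2, Ndufa8, Sdha, Sdhaf1, Uqcr11 and Uqcrfs1 lost their call without it, Atp5g1 gained one, and the same array held the highest Sdha value. The count was 10 without WT replicate 1, 6 without WT replicate 2 and 7 without WT replicate 3. Ndufa4l2, Sdhaf4, Ndufb11, Ndufaf8, Ndufaf3 and Ndufv3 were called whichever of the 12 arrays was left out. Atp5h, Ndufa8 and Uqcrfs1 were called in 1, 2 and 3 of the 12 fits. The median stayed between -0.43 and -0.24 and 77 to 80 members were lower in sign in each of the 12 fits.

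Other mitochondrial genes set these values in context. Of the 13 mitochondrially encoded subunits, 10 were measured, none was called in either genotype or had an unadjusted p under 0.05, and the differences ran from -0.39 for ND6 to 0.02 in WT and from -0.04 to 0.22 in HDAC2-/-. The WT value of ND6 turned to 0.20 without WT ischemia replicate 2. Apart from ND6, their WT means lay between 13.61 and 14.14, near the top of the scale. Of 15 genes for pyruvate dehydrogenase and the citric acid cycle, none fell in WT and 2 rose, Dld by 0.73 and Fh1 by 0.64. Neither was called without WT ischemia replicate 2, where the differences were 0.69 and 0.41. The 6 measured carriers and porins were not called in either genotype, also at an unadjusted p under 0.05. Proximal tubule markers were not called in either genotype, 0 of 11, and their mean level ranged from 11.55 to 11.88 in WT and from 11.56 to 11.85 in WT ischemia. At an unadjusted p under 0.05 the count was also 0 of 11 in both genotypes. By sign 7 of the 11 were lower in WT (median -0.05) and 10 in HDAC2-/- (median -0.15), against 52.8% and 51.2% of all probe sets. Their mean level ranged from 11.55 to 11.86 in HDAC2-/- and from 11.52 to 11.71 in HDAC2-/- ischemia. Of 8 collecting duct markers 2 fell and 1 rose in WT and 2 fell in HDAC2-/-, the rise, of Atp6v0d2, not being called without WT ischemia replicate 2 (0.52). Among those that fell was Slc4a1, the anion exchanger of acid-secreting cells, with differences of -1.62 and -1.31. Of 7 neutrophil markers 2 rose in WT and 3 in HDAC2-/-, and their mean level lay between 4.96 and 5.39 in WT and between 5.32 and 6.51 in WT ischemia. The part of these markers in the differences of the members was not tested.

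**Figure D3:**
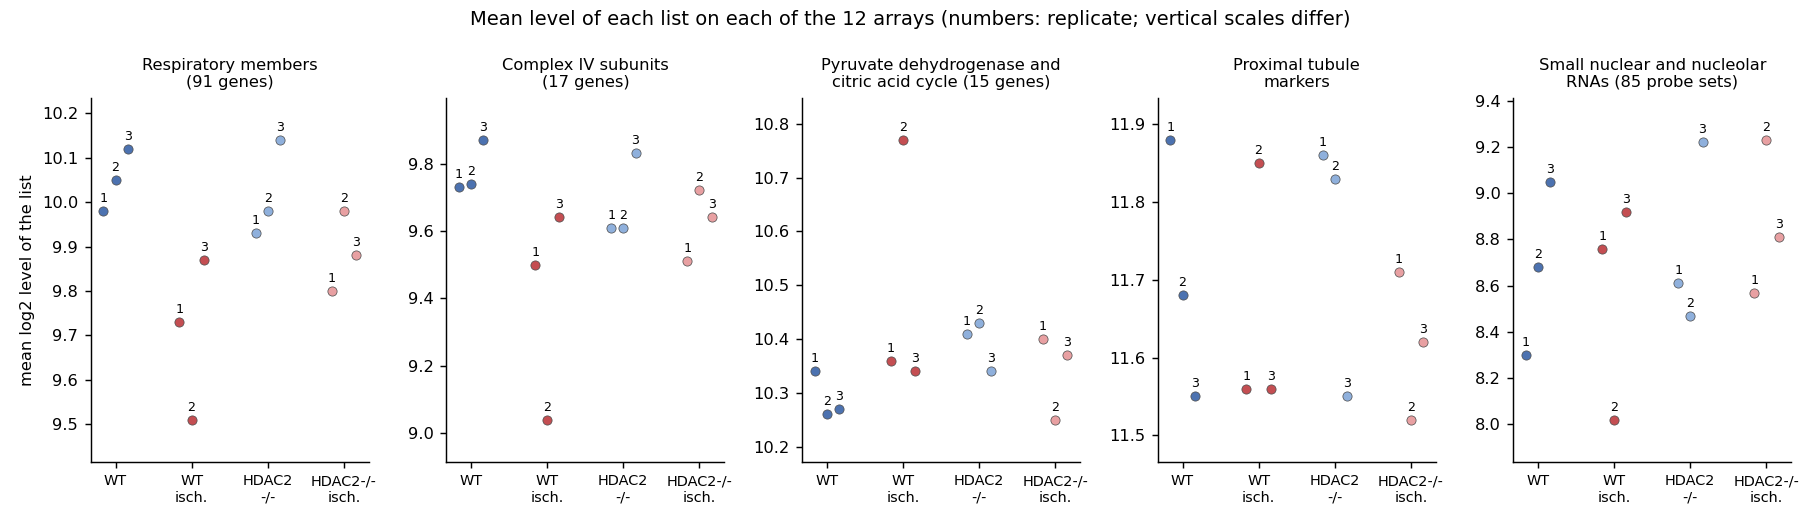
Mean log2 level (vertical axis, scale set per panel) on each of the 12 arrays for the 91 members, the complex IV subunits among them, genes of pyruvate dehydrogenase and the citric acid cycle, proximal tubule markers, and small nuclear and nucleolar RNAs. Each point is an array, numbered by replicate. WT ischemia replicate 2 is lowest in the first 2 panels and the last (9.51, 9.04 and 8.02) and highest in the citric acid cycle panel (10.77). Proximal tubule markers span nearly the same range in WT and WT ischemia. They span 11.55 to 11.86 in HDAC2-/- and 11.52 to 11.71 in HDAC2-/- ischemia.

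Of 15 genes listed as regulators of respiratory genes, among them the mitochondrial factors Tfam, Tfb1m, Tfb2m and Polrmt, 2 fell and 1 rose in WT. Esrra, the estrogen-related receptor alpha that drives oxidative genes, read 9.36, 9.75 and 9.43 in WT and 8.81, 8.62 and 8.98 after ischemia. The groups were apart and the difference was -0.71 (limma adjusted p = 0.00856). Tfb1m, a methyltransferase of the mitochondrial ribosome, fell by 0.83 on the log2 scale. Pprc1, a coactivator related to Ppargc1a, rose by 1.25, from 7.50, 7.39 and 7.26 to 8.69, 8.74 and 8.47. Ppargc1a itself, the coactivator best known for driving mitochondrial genes in the kidney, read 10.12, 9.91 and 10.04 in WT and 9.71, 10.44 and 9.79 after ischemia. Only WT ischemia replicate 2 lay above the WT values and the other ischemic values lay below them, and the difference was -0.04 with that array and -0.27 without it, neither of them called. In HDAC2-/- kidneys the differences were -0.76 for Tfb1m and 0.95 for Pprc1, both called, and -0.44 for Esrra and -0.28 for Ppargc1a, which were not.

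Promoter sequence was examined for the short motifs of factors known to control this gene class. RefSeq windows of GRCm38.p6 (250 bases before to 50 after a transcript start) were found for 76 of the 91 members, 81 windows in all. The letters GCGCA, any base, then GCGC, a core of the nuclear respiratory factor NRF1 site, were present on either strand, as for all motifs searched, in 24.7% of the members' windows, against 4.60% of 32851 windows of all genes and 6.38% of those of protein-coding genes. CCGGAAG, bound by factors of the ETS family such as the GA-binding protein, was present in 27.2% against 8.86% and 11.6%. AAGATGGC, a core of the YY1 site, was present in 12.3% against 2.75% and 3.05%, and TCAAGGTCA, the site of estrogen-related receptors, in 2.47% against 0.423% and 0.334%. The WT median was -0.26 for the 19 genes with an NRF1 match and -0.37 for the 57 without, and -0.33 for the 22 genes with an ETS match and -0.33 for the 54 without. An NRF1 or ETS match was held by 8 of the 13 called-lower members with a window, by 36 of all 76 members with one, and by 12.6% of all windows. The member counts are of genes, any window of which may match, while the share is of single windows. It covers windows of all genes and was not computed for protein-coding genes alone, so the counts and the share are not on the same scale.

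Windows of 8 members that the results turn on are shown, from 120 bases before to 30 after the start, 5′ to 3′ on the strand of the gene, with matches in capitals. They show that the same motif stood at genes that rose and at genes that fell, and that some called genes held none of the 4. Sdha, which rose in WT, held 3 NRF1 matches, Ndufaf4, which rose in HDAC2-/-, held 1, and so did Sdhaf4, on the opposite strand, and Ndufa11, which fell in WT. Ndufaf8 held an ETS and a YY1 match, Cox6b1 an ETS match read on the opposite strand, and Ndufb11 and Cox7a1 none.
Ndufaf8, chr11:120098814-120098963, plus strand: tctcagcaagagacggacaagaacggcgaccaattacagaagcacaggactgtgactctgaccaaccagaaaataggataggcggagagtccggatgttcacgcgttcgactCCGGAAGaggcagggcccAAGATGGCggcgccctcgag
Ndufb11, chrX:20617590-20617739, minus strand: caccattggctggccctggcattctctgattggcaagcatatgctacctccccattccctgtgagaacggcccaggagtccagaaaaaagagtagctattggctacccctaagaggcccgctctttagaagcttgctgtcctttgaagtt
Ndufa11, chr17:56717642-56717791, plus strand: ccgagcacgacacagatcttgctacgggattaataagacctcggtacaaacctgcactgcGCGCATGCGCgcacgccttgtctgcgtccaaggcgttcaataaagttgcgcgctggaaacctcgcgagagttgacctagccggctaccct
Sdhaf4, chr1:24005611-24005760, minus strand: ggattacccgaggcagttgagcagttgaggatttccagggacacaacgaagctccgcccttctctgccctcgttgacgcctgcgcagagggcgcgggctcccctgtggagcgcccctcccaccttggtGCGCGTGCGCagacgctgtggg
Sdha, chr13:74350211-74350360, minus strand: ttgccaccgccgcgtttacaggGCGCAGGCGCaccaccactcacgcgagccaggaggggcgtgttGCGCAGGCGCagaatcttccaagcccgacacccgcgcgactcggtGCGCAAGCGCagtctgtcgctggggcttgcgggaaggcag
Cox6b1, chr7:30626085-30626234, minus strand: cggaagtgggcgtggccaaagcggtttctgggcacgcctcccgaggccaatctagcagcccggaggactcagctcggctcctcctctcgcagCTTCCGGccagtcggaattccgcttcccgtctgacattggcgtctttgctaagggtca
Cox7a1, chr7:30184051-30184200, plus strand: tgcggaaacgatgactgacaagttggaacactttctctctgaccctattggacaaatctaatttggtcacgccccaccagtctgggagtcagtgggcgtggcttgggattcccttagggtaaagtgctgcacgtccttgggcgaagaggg
Ndufaf4, chr4:24897963-24898112, plus strand: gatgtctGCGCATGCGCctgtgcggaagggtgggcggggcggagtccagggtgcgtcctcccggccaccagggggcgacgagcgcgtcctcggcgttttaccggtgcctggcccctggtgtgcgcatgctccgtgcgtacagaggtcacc

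In HDAC2-/- kidneys the members were also lower in sign after ischemia, but by less, and none was called lower. Of the 91, 0 fell and 1 rose, against 1.97% and 2.94% of all probe sets, and at an unadjusted p under 0.05 8 were lower and 1 higher, against 8.72% and 8.19%. By sign 74 were lower and 17 higher, against 51.2% and 48.2% of all probe sets, and the median difference was -0.13, against -0.01 over all probe sets. No overlap between groups was seen for 17 members that were lower and 2 that were higher, against 10.2% and 9.91%. The signs leaned on HDAC2-/- replicate 3, without which the split was 56 to 35 and the median -0.05. That array and HDAC2-/- ischemia replicate 2 had the highest small RNA levels of their genotype, 9.22 and 9.23, and the part of these levels in the differences was not tested beyond the covariate fit described with the processing settings.

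Ndufaf4 was the member called in HDAC2-/- kidneys. It read 8.69, 8.90 and 9.34 without ischemia and 9.40, 9.77 and 9.69 after it. The groups did not overlap, with a 1.56-fold rise (log2 difference 0.64, SE 0.17, limma adjusted p = 0.0462), close to the threshold, and the call held in 3 of 12 fits with an array left out. Its WT values were 8.86, 8.87 and 9.03, and 9.47, 9.23 and 9.51 after ischemia, so all 6 ischemic values exceeded those of their own genotype without ischemia.

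Members called lower in WT had smaller differences in HDAC2-/- kidneys, none of which passed the test. They were chosen by their WT call, and that choice alone makes a smaller difference in the other genotype more likely. Ndufa4l2 read 7.24, 7.14 and 7.50 without ischemia and 6.62, 6.63 and 6.71 after it, a 1.56-fold difference with no overlap (limma adjusted p = 0.101). Ndufaf8 read 9.39, 9.17 and 9.34, then 8.83, 8.94 and 8.68, a 1.40-fold difference with no overlap (limma adjusted p = 0.0562). Sdhaf4 read 7.89, 8.27 and 8.78, then 7.40, 8.14 and 7.63, and these groups overlapped (log2 difference -0.59, limma adjusted p = 0.247). Ndufv3 and Ndufa11 differed by -0.37 and -0.42 without overlap and Ndufb11 by -0.30. In complexes without a call, the smallest p-values were those of Sdhc (-0.26) and Sdhd (-0.22), Uqcr11 (-0.41) and Uqcrc1 (-0.36), Cox7a1 (-0.33) and Cox6b1 (-0.22), and Atp5d (-0.17) and Atp5h (-0.16). By complex, the HDAC2-/- medians were -0.14 for complex I subunits, -0.27 for complex I assembly factors, -0.19 and -0.12 for complex II subunits and assembly factors, -0.18 for complex III, -0.06 for complex IV and -0.09 for the ATP synthase. Complex IV was the group with the most even signs, 10 lower and 7 higher. Outside the symbol rule, Lyrm7 (-0.49) and Cox15 (-0.79) fell in HDAC2-/- kidneys as well, and Ttc19, a factor that maintains complex III, rose in both genotypes, by 0.53 and 0.47. With an array left out, the HDAC2-/- calls of Lyrm7 and Ttc19 each held in 2 of 12 fits and that of Cox15 in 8.

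**Figure D4:**
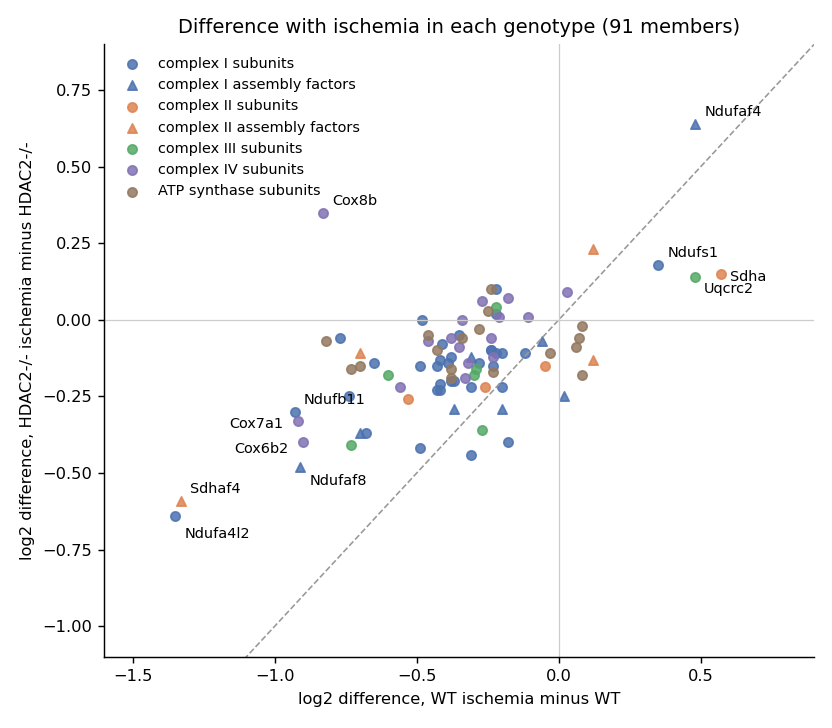
Log2 difference with ischemia in HDAC2-/- kidneys (vertical axis) against that in WT kidneys (horizontal axis) for the 91 members, coloured by complex, with assembly factors as triangles. The dashed line marks equal differences. Of the 68 members lower in both genotypes, 60 lie above the line, with a larger fall in WT (88.2%, against 63.0% of all probe sets lower in both), and Cox8b stands apart at -0.83 in WT and 0.35 in HDAC2-/-.

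The responses of the genotypes come from separate arrays and can be set side by side. Over the 91 members the differences correlated at a Pearson r of 0.61 and a Spearman rho of 0.48, against 0.75 and 0.59 over all probe sets. These are correlations across genes, which are not independent replicates and share array-wide effects. Of the 68 members lower in both genotypes, 60 had the larger fall in WT, or 88.2%, against 7854 of 12458 probe sets lower in both, or 63.0%. The test of the difference between responses called 0 of the 91 members (0% of all probe sets), and 3 members, Ndufa4l2, Ndufaf8 and Sdhaf1, had an unadjusted p under 0.05, all with the smaller fall in HDAC2-/-, against 2.53% of all probe sets in that direction and 1.66% in the other. Ndufa4l2 had a difference of responses of 0.71 with a 95% interval of 0.09 to 1.34 (limma adjusted p = 0.956). The next after these 3 were Ndufb11, with 0.63 (95% interval -0.02 to 1.28), and Sdhaf4, with 0.74 (-0.03 to 1.51). The members' median difference of responses was 0.20, with 74 of 91 above 0, against 51.7% of all probe sets above and 47.8% below 0 and a median of 0.01. Of bright probe sets 60.2% were above 0, with a median of 0.08. Without WT ischemia replicate 2 the members' median was 0.10, and with the small RNA level as a covariate it was 0.14.

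Compared directly after ischemia, members were mostly higher in HDAC2-/- than in WT kidneys, and none passed the test. By sign 72 of 91 were higher, or 79.1%, against 52.4% of all probe sets higher and 46.9% lower, and 60.4% of bright ones higher. The members' median was 0.18, against 0.01 over all probe sets and 0.06 over bright ones. At an unadjusted p under 0.05 9 were higher and 0 lower, against 3.78% and 2.81%, and 10 were higher and 0 lower with no overlap between the groups, against 5.99% and 4.08%. Of the 3961 bright probe sets 214 were higher and 93 lower at that p, and 317 were higher and 108 lower without overlap. The smallest p of the members belonged to Ndufaf8, whose HDAC2-/- ischemia values of 8.83, 8.94 and 8.68 all exceeded the WT ischemia values of 8.26, 8.22 and 8.55. The difference was 0.47 with a 95% interval of 0.18 to 0.76 (limma adjusted p = 0.713). Ndufb11 differed by 0.62, Sdhaf1 by 0.53, Cox7a1 by 0.59 and Cox6b1 by 0.38, with adjusted p-values between 0.713 and 0.738 (limma). Without WT ischemia replicate 2 these 4 differences were 0.33, 0.32, 0.27 and 0.21. Outside the symbol rule, Lyrm7 differed by 0.60 (95% interval 0.32 to 0.88) and was not called either. Sdha differed the other way, by -0.29, with overlapping groups, and by -0.12 without that array. The median was 0.08 without WT ischemia replicate 2, with 74 members higher and 16 lower, and 69 to 75 members were higher in each fit with an array left out. With the small RNA level as a covariate the median was 0.09, with 76 members higher and 15 lower. This comparison shares the WT ischemia arrays with the WT response and is not independent of it. Markers of some distal segments moved in the same comparison. Of the thick ascending limb 5 of 6 were lower in HDAC2-/- ischemia (median -0.39, 2 at an unadjusted p under 0.05). Of the distal convoluted tubule 3 of 4 were lower (median -0.51, 3 at that p), and Pvalb was higher by 0.82, also at that p. Of the 8 collecting duct markers 4 were lower and 4 higher (median -0.04, 2 lower and 1 higher at that p). None of them was called, and neither was any other probe set. WT ischemia replicate 2 had the highest mean of its group for the thick ascending limb, 10.76 against 10.47 and 10.49. The same held for the distal convoluted tubule, 10.45 against 10.13 and 10.15. The mean level of the thick ascending limb list was 10.47 to 10.76 in WT ischemia and 9.86 to 10.43 in HDAC2-/- ischemia. The part of these cells in the differences of the members was not tested.

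Without ischemia no member passed the test between the genotypes. Of the 91, 0 were called (0% of all probe sets). At an unadjusted p under 0.05 2 were lower in HDAC2-/- and 0 higher, against 1.22% and 1.16% of all probe sets. The median difference was -0.01, with 50 lower and 37 higher, against 49.0% and 50.1%, and the groups did not overlap for 3 members that were lower and 2 that were higher, against 3.83% and 3.79%. The members with an unadjusted p under 0.05 were Cox8b and Ndufa12. Ndufa12, an accessory complex I subunit, read 10.22, 10.61 and 10.82 in WT and 9.83, 10.20 and 10.10 in HDAC2-/-. These values did not overlap (log2 difference -0.51, 95% interval -0.96 to -0.05, limma adjusted p = 1). The next smallest p-values belonged to Ndufa4l2, with a difference of -0.34, the methyltransferase Ndufaf7, with 0.24, and Cox7b2, with -0.22, and the median SE over all members was 0.16.

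Several subunits exist as paired isoforms, a widely expressed form and a form known mainly from particular tissues or conditions. In WT, the widely expressed forms Cox4i1, Cox6a1, Cox7a2 and Cox8a differed by -0.23, -0.11, -0.32 and -0.21 with ischemia, and none was called, while Cox6b1, the widely expressed form of subunit 6B, was called at -0.56. Of their partners, Cox7a1 was called at -0.92. Cox4i2, which is hypoxia-responsive, and Cox6a2, known from heart and skeletal muscle, differed by -0.35 and -0.33, and Cox6b2, known from testis, by -0.90 (limma adjusted p = 0.14), and these 3 did not pass. Without WT ischemia replicate 2 Cox6b2 was at -0.53 and Cox6b1 and Cox7a1 were not called. Ndufa4, named for complex I and since placed in complex IV, differed by -0.43 (limma adjusted p = 0.202), against the called -1.35 of Ndufa4l2. Cox5a and Cox5b, which are separate subunits, differed by -0.46 and -0.38, and by -0.19 and -0.14 without that array, where Ndufa4 was at -0.24, and a dim second probe set of Cox5b was called at -0.69. Cox7a2l, a factor of supercomplex assembly, differed by -0.34, and the dim Cox8c by 0.03. In HDAC2-/- kidneys the forms of subunits 4, 6A, 6B, 7A and 8 gave no call.

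**Figure D5:**
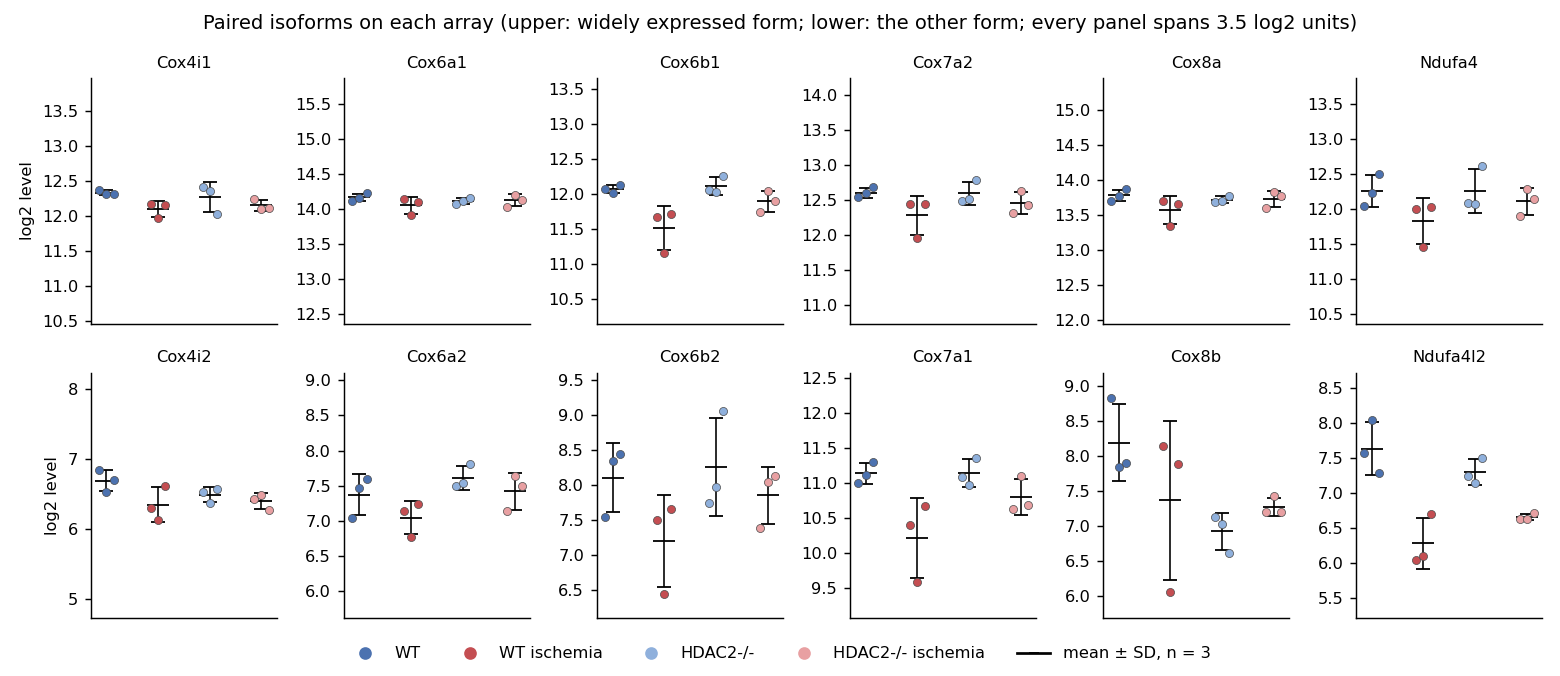
Log2 level (vertical axis, 3.5 log2 units in every panel) of paired isoforms on each of the 12 arrays, with the widely expressed form above and its partner below. Points are arrays by group, bars the mean ± SD of 3 arrays. Ndufa4l2 is lower in both ischemic groups, and Cox8b in WT ischemia spans 6.06 to 8.14.

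Cox8b, the form of subunit 8 known from heart, skeletal muscle and brown fat in mice, had the widest spread of the members. It read 8.83, 7.84 and 7.90 in WT, 8.14, 6.06 and 7.89 in WT ischemia, 7.12, 7.02 and 6.62 in HDAC2-/- and 7.20, 7.42 and 7.20 in HDAC2-/- ischemia. Without ischemia every HDAC2-/- value lay below every WT value, a 2.41-fold difference (log2 difference -1.27, SE 0.42) with an unadjusted p of 0.00864 by limma and an adjusted p of 1. With ischemia, the WT ischemia values spanned those of both HDAC2-/- groups. Muscle and brown fat express this form, and their markers are given here with those of white fat. Of 9 striated muscle markers none was called with ischemia, and their mean level lay between 5.17 and 5.38 on all arrays. Between WT and HDAC2-/- 2 of them had an unadjusted p under 0.05, 1 lower and 1 higher. No probe set of the array was called between WT and HDAC2-/-, so the lack of a call among these markers decides nothing. Of 6 genes listed for brown fat, Ucp1 and Ppara were called higher in WT after ischemia, by 0.93 and 0.70. With an array left out, these calls held in 7 and 11 of 12 fits. Ppara lay at 8.38 to 9.61 over all arrays, and the other listed genes at 6.49 or below. At that level Ppara cannot be taken to mark brown fat here. The mean of the 6, Ppara included, was 5.45 to 5.54 in WT and 5.4 to 5.57 in HDAC2-/-. Of 6 white fat markers, 4 were lower in HDAC2-/- than in WT and 2 higher. Among the lower ones 2 had no overlap and 1 an unadjusted p under 0.05, against 3.83% and 1.22% of all probe sets. The white fat mean was 6.25 to 6.45 in WT and 6.06 to 6.21 in HDAC2-/-. The part of these tissues in the Cox8b values was not tested.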

How the data were processed

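The authors deposited log2 expression values of 34472 probe sets on 12 arrays, summarised by robust multi-array averaging with Transcriptome Analysis Console 4.0 per the labels and the study's methods. The values were used as deposited. A platform table gave 1 symbol for 23521 probe sets, several for 1820 and none for 9131, and only the first kind was named. Differences were tested with limma 3.58.1 in R 4.3.3, with 1 mean per group over all 12 arrays, empirical Bayes variances and Benjamini-Hochberg adjustment over all probe sets, and called at an adjusted p under 0.05. Exact permutation of 3 against 3 arrays cannot go below 0.1, so it was not used to call single genes. The study describes the 3 arrays of a condition as independent replicates without saying whether each is 1 mouse, so p-values measure the spread between these samples, and the number of arrays limits the precision.

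The members and the lists of other genes were chosen with earlier results of these data known. Members named with values were the called ones of largest change in each complex (at most 3 per direction, or the 2 of smallest p where none was called), the 5 of smallest p in comparisons between genotypes, and paired isoforms, with the 2 largest called differences of the other lists, Ppargc1a and Esrra. Named besides, after their values were seen, were core subunits of complex I and the ATP synthase, Uqcrc2, and Ndufaf4 in WT. Alternatives covered scaling, filters, variance model, array weights, a small RNA covariate, thresholds and leaving out arrays. The fit was tested on simulated data. Figures were drawn with matplotlib 3.10.9.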

Additional observations from a re-analysis of the deposited data

Results flagged for a closer look

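Cox8b was the member, of 41 looked at, whose ischemic arrays moved in opposite directions in the genotypes, all 3 below the mean of their own genotype without ischemia in WT and all 3 above it in HDAC2-/-. Its log2 differences were -0.83 and 0.35, and the difference between responses was 1.18 with a 95% interval of -0.08 to 2.44 that includes 0 (limma, unadjusted p = 0.0647, adjusted p = 0.956). The WT value rests on WT ischemia replicate 2, at 6.06, against 8.14 and 7.89 on the other ischemic WT arrays, and it was -0.18 without that array.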

How the results depend on the processing

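The 16 members called in WT were 9 with the fit limited to the compared groups, 2 with an unadjusted p under 0.05 and at least 2-fold, and 34 with the small RNA level as a covariate, where 31 were lower and 3 higher against 10.9% of all probe sets lower. Leaving out 1 array gave 6 to 23. The other settings, among them centring, quantile normalization and array weights, gave 11 to 22. In HDAC2-/- kidneys the count of 1 became 0 with quantile normalization, with a trended and robust variance model, without the empirical Bayes step and at the 2-fold threshold, 2 over probe sets with a mean of at least 5 and over those of 1 symbol, 1, lower and not Ndufaf4, with the compared groups only, 4 with the covariate, 10 with array weights (8 lower and 2 higher) and 0 to 2 with 1 array left out. Between HDAC2-/- and WT the count of 0 became 1, Cox8b, at the 2-fold threshold. For the other 2 contrasts it was 0 in each setting run. The cause of these changes was not tested, except that fewer arrays or fewer probe sets tested follow from the setting.

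Median differences of the members kept their direction in both genotypes, at -0.43 to -0.24 in WT and -0.17 to -0.05 in HDAC2-/- with 1 array left out. The medians were 0.08 to 0.24 between the ischemic groups and 0.10 to 0.28 for the difference of responses. With the small RNA level as a covariate, the medians were -0.31 in WT and -0.17 in HDAC2-/-. That fit gave 0.09 between the ischemic groups, against 0.18 in the main fit. For the difference of responses it gave 0.14, against 0.20. Arrays that share a replicate number correlated at -0.37 to 0.44 over 18 pairs. With both signs among them, these values cannot show whether the numbers pair the samples or mark a batch. The main fit did not pair them. With the replicate block, 15 members were called in WT and 1 in HDAC2-/-. Among the members named with values, no called value changed direction, though uncalled values near 0 did, and the side of the threshold was lost in 91 pairs of result and setting and gained in 24. Members that were only counted are not among these pairs. With 3 arrays a group, calls near the threshold, such as Atp5h, Ndufa8, Uqcrfs1 and Ndufaf4, depended on the arrays included.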
